A study of Mus musculus with 6 samples.

Results

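Mature neutrophil genes are genes whose RNA marks neutrophils in the later steps of their development and in blood and tissue. 10 such genes were chosen with earlier old against young results of these libraries in view, and 9 of them could be read among 19033 intact genes. These were Camp, Ngp and Lcn2, whose proteins are stored in secondary granules, and S100a8, S100a9, Retnlg, Csf3r, Stfa1 and Stfa2, which are cytosolic, surface or late genes. Ltf, which encodes the secondary granule protein lactoferrin, had 3 damaged values among its 6 and is not analysed here. Since known old and young values led to the choice, the values of the 9 members are given as a description, with no test.

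RNA was sequenced from 3 old and 3 young C57/BL6 mice, 1 library per mouse, in samples labelled as endothelial cells of the lung. Both groups carried the same treatment, acid injury, and no uninjured library was analysed here. The labels give no age in months, no sex and no time after injury, and their protocol speaks of homogenized tissue without naming a step that isolates cells. Values are FPKM, which corrects fragments for the length of the gene and the size of the library. In this unit levels of different genes can be compared within a library.

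Neutrophils fill their granules in order as they mature in bone marrow. Primary granule proteins such as myeloperoxidase and elastase are transcribed first, secondary granule proteins next and gelatinase granule proteins later. Receptors for chemoattractants mark the last steps. Neutrophils enter injured lung from the blood through its capillaries and venules, and acid instilled into the airways is a common way to provoke this in mice.

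Libraries stood apart in ways that reach every result given here. Implied depth ran from 11381122 fragments in old mouse 2 to 17931463 in old mouse 3. The 9 members held 0.00752% of all fragments in young mouse 1, 0.0599% to 0.101% in the old mice, and 1.74% and 1.66% in young mice 2 and 3. Young mouse 1 was also low in other leukocyte RNA, with 11 macrophage and monocyte markers summing to 231 FPKM against 499.8 to 3195 FPKM elsewhere. It held the most endothelial RNA, 825 FPKM summed over 7 markers, against 465 and 322 FPKM in young mice 2 and 3 and 27.0 to 86.1 FPKM in the old mice. All 7 endothelial markers fell in the old group by limma (a linear model per gene, adjusted p under 0.05) and all 4 fibroblast markers rose. Of all 10010 tested genes, 2.03% fell and 2.95% rose. Dcn, a matrix proteoglycan of fibroblasts, stood at 1085 to 2916 FPKM in old libraries labelled endothelial, against 1.75 to 8.84 FPKM for the endothelial cadherin Cdh5. In bulk RNA, fewer cells of a type and less RNA per cell cannot be told apart.

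S100a8 and S100a9 encode the subunits of calprotectin, a calcium- and zinc-binding protein that fills the neutrophil cytosol, and lie close together on chromosome 3 (GRCm38, from 90668978 and from 90692632). S100a9 measured 285, 182 and 516 FPKM across old mice 1 to 3, against 27.1, 11686 and 12541 FPKM across young mice 1 to 3. S100a8 measured 308, 86.3 and 311 FPKM across the old mice, against 20.9, 9995 and 9164 FPKM across the young. Young mice 2 and 3 were thus far above every old library and young mouse 1 was below every old library, so the young values lie on both sides of the old. S100a9 in young mouse 2 was 431-fold its level in young mouse 1, and in old mouse 3 it was 19.0-fold that level. The pair made up 74.7% and 77.9% of all member fragments in young mice 2 and 3, and 25.8% to 54.8% in the other 4 libraries.

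Retnlg, which encodes the secreted resistin-like protein gamma, measured 37.6, 49.7 and 67.4 FPKM across old mice 1 to 3, against 3.71, 1935 and 2238 FPKM across young mice 1 to 3. Csf3r encodes the receptor for granulocyte colony-stimulating factor, the growth factor of the lineage. It measured 4.09, 1.46 and 5.10 FPKM across the old mice, against 0.625, 16.3 and 23.0 FPKM across the young. Both genes had young mouse 1 lowest and young mice 2 and 3 highest, as S100a9 did, but over very different ranges. Retnlg was 521-fold higher in young mouse 2 than in young mouse 1, and Csf3r 26.0-fold.

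Among the secondary granule genes, Camp encodes the antimicrobial peptide cathelicidin and Ngp the neutrophilic granule protein. Ngp measured 24.7, 11.4 and 15.1 FPKM across old mice 1 to 3, against 1.39, 532 and 588 FPKM across young mice 1 to 3. Camp measured 23.2, 3.59 and 14.7 FPKM across the old mice, against 1.41, 62.4 and 224 FPKM across the young. Old mouse 1 was the highest old library for both, whereas old mouse 3 was the highest for S100a8, S100a9, Retnlg and Csf3r. Young mice 2 and 3 differed by 1.11-fold in Ngp but by 3.60-fold in Camp.

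Lcn2 encodes lipocalin 2, a secondary granule protein that binds bacterial siderophores and is also made by stressed epithelium. It measured 216, 149.6 and 118 FPKM across old mice 1 to 3, against 14.8, 897 and 403 FPKM across young mice 1 to 3. The lower of young mice 2 and 3 was 1.86-fold the highest old library. The same ratio was 2.69 for Camp, 3.19 for Csf3r, 21.5 for Ngp and 22.7 for S100a9. The 7 intact epithelial markers summed to 1372 to 1690 FPKM among old libraries, against 121 to 283 among young ones. Of the 6 tested, 4 rose in old mice by limma (Krt8, Krt18, Krt19 and Epcam), against 2.95% of all tested genes. The surfactant gene Sftpb averaged under 1 FPKM and was not tested. It was at 0 in all old libraries, from which no loss in old mice is read. The part of epithelial RNA in the Lcn2 values was not tested.

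**Figure D1:**
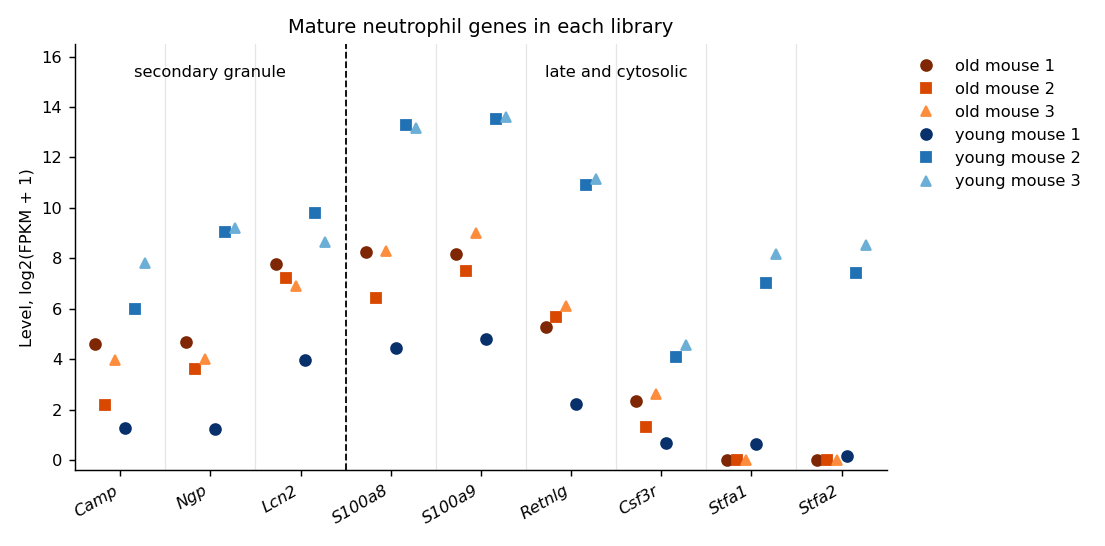
The level of each of the 9 readable members, as log2(FPKM + 1), in each of the 6 libraries; 1 point is 1 mouse. Young mouse 1 is the lowest point and young mice 2 and 3 the highest for every gene except Stfa1 and Stfa2, which are at 0 in all old libraries.

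The same shape, with young mouse 1 below and young mice 2 and 3 above all old libraries, held for 7 of the 9 members, all but Stfa1 and Stfa2. It was defined after the values were seen, and 2.09% of the 10010 tested genes had it. Because the members were chosen on these values, nothing is read from that count. Old minus young differences were -2.63 ± 2.29 on the log2(FPKM + 1) scale (limma SE, 3 mice a group) for S100a8, -2.42 ± 2.26 for S100a9 and -2.42 ± 2.25 for Retnlg. They were -2.40 ± 2.02 for Ngp, -1.44 ± 1.59 for Camp, -1.05 ± 1.00 for Csf3r and -0.19 ± 1.39 for Lcn2. Across all 10010 genes limma called 4.98% at an adjusted p under 0.05, 2.95% higher and 2.03% lower in old mice.

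Which young library entered set the size of each difference. Without young mouse 1, the difference was -5.34 for S100a9 and -5.02 for Ngp on the log2(FPKM + 1) scale. Without young mouse 3 it was -0.94 for S100a9 and -1.05 for Ngp, and without young mouse 2 it was -1.14 for S100a8. Lcn2 changed sign, from -1.94 without young mouse 1 to 0.98 without young mouse 2. It was also above 0 without young mouse 3 and without old mouse 3.

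**Figure D2:**
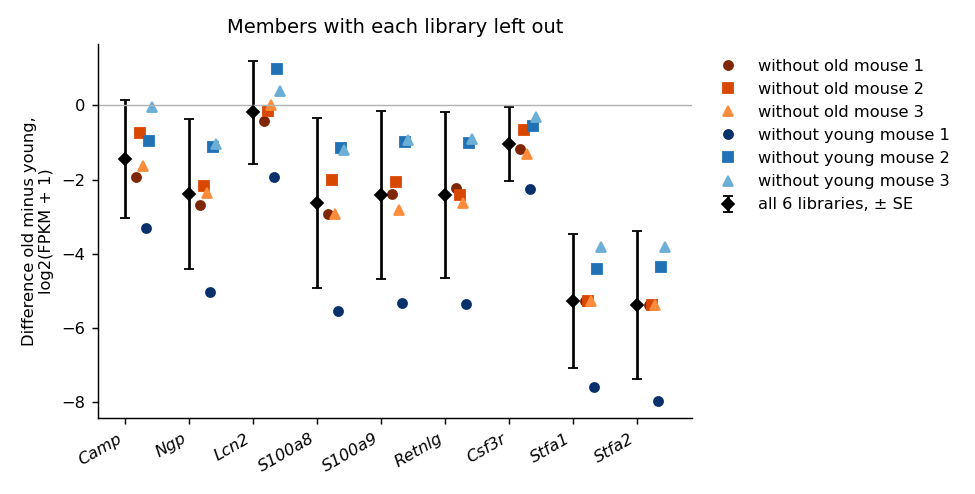
The log2(FPKM + 1) difference of each member, old minus young. Black diamonds with bars are all 6 libraries ± SE from limma, and coloured points leave out 1 library each; leaving out young mouse 1 moves every member down, to -5.34 for S100a9 and -7.60 for Stfa1.

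Set against S100a9 in the same library, several members kept nearly one proportion. The S100a8 level was 0.475 to 1.08 of the S100a9 level over all 6 libraries, a 2.28-fold range, and Retnlg 0.131 to 0.274, a 2.09-fold range, while S100a9 itself was 462-fold higher in young mouse 3 than in young mouse 1. Ngp ran from 0.0292 to 0.0868 of S100a9, with 0.0511, 0.0455 and 0.0469 in young mice 1, 2 and 3. In proportion to S100a9, young mouse 1 was therefore close to young mice 2 and 3 for these genes, although its levels were the lowest.

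Lcn2, Csf3r and Camp did not keep that proportion. Lcn2 made 0.759, 0.824 and 0.229 of S100a9 across old mice 1 to 3 and 0.547, 0.0767 and 0.0321 across young mice 1 to 3. Csf3r was at 0.0144, 0.0080 and 0.0099 of S100a9 in the old mice and at 0.0230, 0.0014 and 0.0018 in the young, and Camp at 0.0053 in young mouse 2 and 0.0179 to 0.0813 in the others. For these genes the libraries poorest in S100a9 RNA, young mouse 1 among them, had more of the gene per unit of S100a9 than young mice 2 and 3 did. S100a9 is the divisor of these ratios, so a gene that varies less than S100a9 gives this order by arithmetic. The order of levels within a library also differed. S100a9, S100a8 and Lcn2 filled the first 3 ranks in all old libraries and in young mouse 1, whereas Retnlg took the third place in young mice 2 and 3.

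Elane and Mpo, primary granule genes, had another order. Elane, which encodes neutrophil elastase, measured 1795, 34.8 and 326 FPKM across old mice 1 to 3, against 0, 21.5 and 3.87 FPKM across young mice 1 to 3. Mpo, the myeloperoxidase gene, measured 421, 15.5 and 68.9 FPKM across the old mice, against 0, 1.56 and 1.20 FPKM across the young. In old mouse 1 the Elane level was 6.31 times that of S100a9, and in young mouse 3 it was 0.000308 of it. Each old library held more of both genes than each young library, as for 14.5% of tested genes. This was the reverse of the order seen for S100a9 in young mice 2 and 3.

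**Figure D3:**
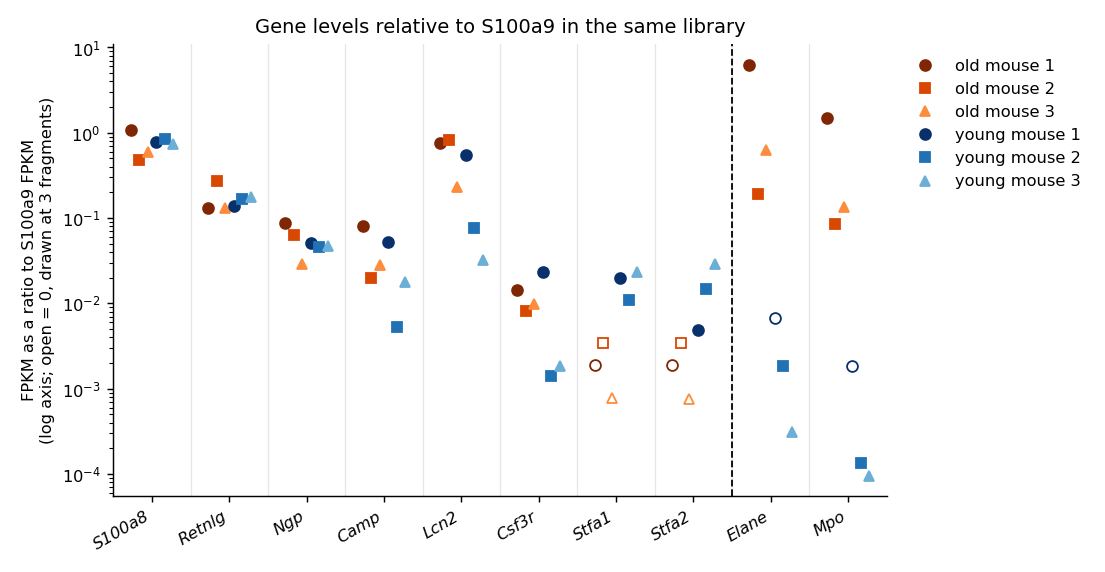
FPKM of each gene divided by the FPKM of S100a9 in the same library, on a log axis; open symbols mark a gene at 0, drawn at the ratio that 3 fragments would give. S100a8, Retnlg and Ngp lie within 3-fold over the 6 libraries, Stfa1 and Stfa2 are at 0 in the old mice, and Elane and Mpo (right of the dashed line) are highest in old mouse 1.

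Stfa1 and Stfa2 encode stefins, small cytosolic inhibitors of cysteine proteases that mouse neutrophils make in quantity. Stfa1 had no fragment in any of the 3 old libraries and reached 0.540, 129 and 289 FPKM across young mice 1 to 3, which are 4, 837 and 1798 fragments. Stfa2 had none in the old libraries either and reached 0.133, 173 and 366 FPKM across the young mice, which are 1, 1134 and 2310 fragments. For both, the old and young values did not overlap, as for 16.7% of tested genes in that direction, and nothing is read from this, since both were chosen on these values. Both genes were about 2-fold higher in young mouse 3 than in young mouse 2 (2.24-fold and 2.12-fold), although these mice differed by only 1.07-fold in S100a9. Old minus young differences were -5.27 ± 1.80 for Stfa1 and -5.38 ± 2.00 for Stfa2 (log2(FPKM + 1) scale, limma SE), values that depend on the pseudocount because the old group is at 0.

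A library with no fragment still allows a low level, set here as 3 fragments per library and covering counting error only. The highest such floor in an old library was 0.631 FPKM for Stfa1, and the young mean of 139 ± 144 FPKM (SD, n = 3) was at least 221-fold higher, although young mouse 1 was itself below that floor. For Stfa2 that floor was 0.623 FPKM, and the young mean of 179.8 ± 183 FPKM (SD, n = 3) was at least 288-fold higher. Young mouse 1, at 0.133 FPKM, was again below the floor, so both means rest on young mice 2 and 3.

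Neighbouring genes on chromosome 16 are related to these and were read the same way. Stfa3 and BC100530 were at 0 in all old libraries and in young mouse 1, while young mice 2 and 3 had 67.6 and 143 FPKM of Stfa3 and 47.5 and 102 FPKM of BC100530. Gm5483 differed from them, with 11, 0 and 55 fragments in old mice 1, 2 and 3, against 2, 1582 and 2508 in young mice 1, 2 and 3. In old mouse 3 its level was 0.0144 of S100a9, against 0.0211 and 0.0324 in young mice 2 and 3. None of these 3 genes passed with all 6 libraries (limma adjusted p 0.183 to 0.301). The readable genes of the group span 36184212 to 36455392 on chromosome 16 of GRCm38.

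**Figure D4:**
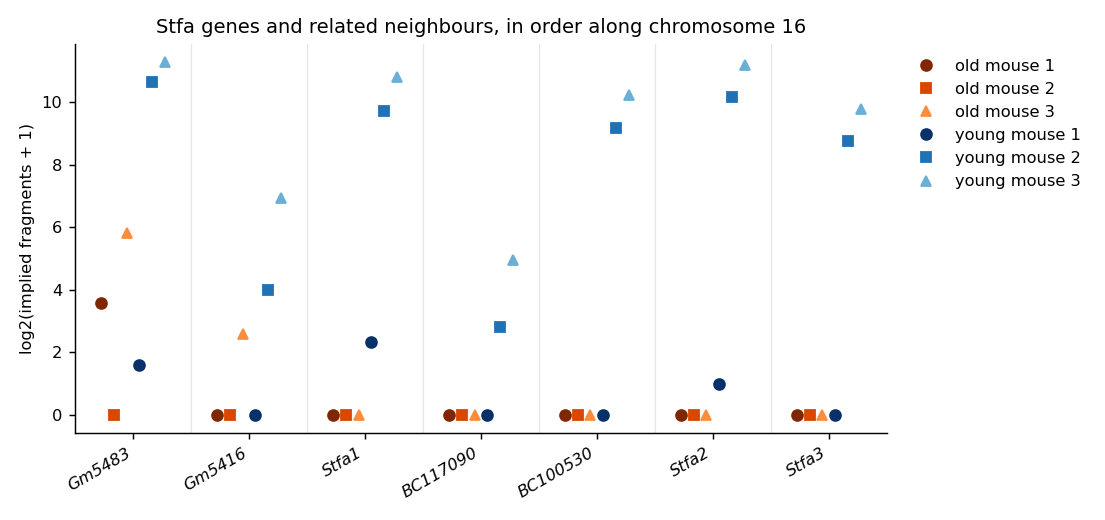
Implied fragments, as log2(fragments + 1), of Stfa1, Stfa2 and 5 related neighbours in each library; 1 point is 1 mouse. The 4 genes Stfa1, Stfa2, Stfa3 and BC100530 hold 0 fragments in every old library and 432 to 2310 in young mice 2 and 3, and Gm5483 holds 55 in old mouse 3.

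Reads of such copies can be assigned to the wrong gene, so values within the group are uncertain. The coding sequence of Stfa2 was 96.5% identical to that of Stfa2l1, whose row was damaged, and 81.1% identical to that of Stfa3. BC100530 and BC117090 were 95.2% identical. Outside the stefins, S100a8 and S100a9 shared 49.7% of their aligned coding bases and Camp and Ngp 49.9%. The implied gene length was 418 bases for Stfa1 and 423 for Stfa2, against 710 and 471 in GENCODE M21, so the authors' annotation of these genes differs from that one.

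The bases just upstream of the start are printed for 5 members. The promoters of the stefin pair resemble each other. S100a8 and Ngp kept within 2.28-fold and 2.97-fold ranges relative to S100a9 across libraries. Retnlg, with a 2.09-fold range, is not printed. Each run holds the 250 bases before the RefSeq start, 5′ to 3′ on the gene's strand, from GRCm38.p6, and all 10 chosen genes matched an entry in that table. Capitals mark matches, on either strand, to TTNNGNAA (a motif of the C/EBP factors, which drive granulocyte genes), GAGGAAG (a motif of PU.1) or TATAAA (the TATA box). The positions are chr16:36276898-36277147 (plus strand), chr16:36408364-36408613 (minus), chr3:90668821-90669070 (plus), chr3:90695722-90695971 (minus) and chr9:110419558-110419807 (plus).
Stfa1: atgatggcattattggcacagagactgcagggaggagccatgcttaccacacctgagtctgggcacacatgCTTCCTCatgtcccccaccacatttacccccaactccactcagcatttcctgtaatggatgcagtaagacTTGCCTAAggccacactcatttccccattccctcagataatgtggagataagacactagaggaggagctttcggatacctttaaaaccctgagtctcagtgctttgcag
Stfa2: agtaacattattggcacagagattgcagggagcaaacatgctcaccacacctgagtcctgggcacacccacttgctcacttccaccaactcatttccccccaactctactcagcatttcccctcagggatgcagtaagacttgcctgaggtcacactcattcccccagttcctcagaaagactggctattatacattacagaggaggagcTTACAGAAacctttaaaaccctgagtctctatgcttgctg
S100a8: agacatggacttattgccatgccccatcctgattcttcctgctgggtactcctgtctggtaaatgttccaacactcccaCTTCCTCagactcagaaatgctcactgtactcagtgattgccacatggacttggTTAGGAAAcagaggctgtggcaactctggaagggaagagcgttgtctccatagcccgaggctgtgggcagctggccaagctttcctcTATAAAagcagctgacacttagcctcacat
S100a9: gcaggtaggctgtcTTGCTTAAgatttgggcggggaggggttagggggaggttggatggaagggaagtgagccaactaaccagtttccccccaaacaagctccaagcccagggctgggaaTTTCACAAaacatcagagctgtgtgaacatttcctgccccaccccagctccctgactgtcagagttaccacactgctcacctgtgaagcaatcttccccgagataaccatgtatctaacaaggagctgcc
Ngp: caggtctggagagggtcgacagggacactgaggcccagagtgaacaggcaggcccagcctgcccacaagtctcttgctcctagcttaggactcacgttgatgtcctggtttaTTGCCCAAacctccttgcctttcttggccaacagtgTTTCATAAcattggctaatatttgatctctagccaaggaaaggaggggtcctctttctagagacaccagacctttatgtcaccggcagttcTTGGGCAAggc

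The Stfa1 and Stfa2 runs were identical at 204 of 253 aligned positions (80.6%), against 45.5% for S100a8 with S100a9 and 42.3% for Camp with Ngp. TTNNGNAA was found in 8 of the 10 promoters and in 36.8% of the 32851 promoters in the table. GAGGAAG was found in 4 and in 10.6% of all, and TATAAA in 1, S100a8, and in 12.4% of all. Ngp held 3 matches to TTNNGNAA, and Camp held none of the 3 motifs. Such matches describe letters in a window and do not show that a factor binds there.

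Among tested genes without predicted or clone symbols, the 12 others whose levels ran most like the members were found by a distance. BC100530 and Gm5483 have such symbols and were not candidates, so genes as near as those named may be missing. Likeness was the root mean square difference between a gene's log2(FPKM + 1) values, centred on their mean over the 6 libraries, and the members' mean profile. The nearest was Asprv1, a retroviral-like aspartic protease, at 0.51, followed by the neutrophil collagenase Mmp8 at 0.70, Ifitm6 at 0.79 and the formyl peptide receptor Fpr2 at 0.83. The next were Il1f9, Mcemp1, Itgam, Slfn4, Cxcl3, Stfa3, Mmp9 and Fpr1, up to 1.04, while the median over 8658 candidates was 2.75. Members themselves ranged from 0.35 for Ngp to 1.46 for Stfa2. Asprv1 measured 2.00, 3.01 and 8.33 FPKM across old mice 1 to 3, against 0.328, 134 and 145 FPKM across young mice 1 to 3. Its ratio to S100a9 stayed between 0.0070 and 0.0166 in the 6 libraries. Asprv1 was picked for its likeness to the members, S100a9 among them, so nothing is read from that steady ratio.

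Beyond the members, 102 genes of 12 lists were tested, covering neutrophil genes, relatives of the members, endothelial capture molecules and receptors of secreted members. Of these, 8 passed, 4 higher and 4 lower in old mice (7.84%, against 4.98% of all genes tested). The 4 higher were Mpo, Cd63, Cst7 and Klf5. The 4 lower were Ceacam1, which endothelium also carries, and the endothelial capture genes Sele, Selp and Pecam1. The median difference of the 102 genes was -0.34 on the log2(FPKM + 1) scale, against -0.01 for all tested genes. It was -1.16 without young mouse 1, 0.04 without young mouse 2 and 0.17 without young mouse 3, so its sign turned on which young library entered. The count of 8 was 2, 3 and 1 without old mouse 1, 2 or 3 and 3 without young mouse 3. Without young mouse 1 the count was 18, of which 17 were lower in old mice, against 2.6% of all genes called and 1.17% lower in that fit. Young mouse 1 was already known as the lowest library for 7 of the 9 members. The young group of this fit is young mice 2 and 3 alone, so nothing is read from that count. The 17 lower genes included the gelatinase and collagenase genes Mmp9 (-3.77 ± 0.31, SE) and Mmp8 (-4.29 ± 0.63) and the integrin Itgam (-3.57 ± 0.32). Asprv1 (-4.86 ± 0.50), Stfa3 (-6.64 ± 0.36) and BC100530 (-6.15 ± 0.36) were also among them. Whether these genes passed thus turned on young mouse 1. The limma adjusted p ran from 0.00497 to 0.0419 over the 18. Of the 8 genes, 5 were among the 18, namely Cst7 and the 4 lower genes Ceacam1, Sele, Selp and Pecam1.

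Among primary granule and precursor genes, 2 of 5 rose in old mice, 0 fell and 3 did not pass, with a median of 1.66. Mpo rose by 5.47 ± 1.10 (SE) on the log2(FPKM + 1) scale (limma adjusted p = 0.0408, range over 15 alternatives 0.0357 to 0.116) and Cd63, a tetraspanin of primary granules and of many other cells, by 1.66 ± 0.34 (limma adjusted p = 0.0412, range 0.0390 to 0.126). The call for Mpo ended without old mouse 1, without old mouse 3 and without any 1 of the young mice, and that for Cd63 without any 1 library except young mouse 2. Elane stood at a difference of 5.85 ± 1.60 (limma adjusted p = 0.0867). Prg2, the eosinophil major basic protein gene, was also highest in old mouse 1, at 483 FPKM there and at most 60.6 FPKM elsewhere. The other 4 intact eosinophil markers were near 0 in that library, with Epx at 1.41, Siglecf at 0.515 and Il5ra at 0.233 FPKM and Ccr3 at 0.

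Of 12 other secondary and gelatinase granule genes, 0 rose and 1 fell, and 11 did not pass. The gene that fell was Ceacam1, an adhesion molecule that endothelium and epithelium also carry, by 2.15 ± 0.38 on the log2(FPKM + 1) scale (limma adjusted p = 0.0307, range 0.0292 to 0.0922). Its call ended without any 1 of the old mice and without young mouse 2 or young mouse 3. Of all 10010 tested genes, 2315 had an unadjusted p under 0.05. Of 20 receptor and signalling genes of mature neutrophils, limma called 0, and 0 had an unadjusted p under 0.05. The 2 most abundant were the Fc receptor genes Fcgr3, with 71.7 to 197 FPKM among old libraries and 4.94 to 275 among young ones, and Fcgr4, at 9.94 to 61.7 and 1.75 to 175 FPKM. Of 17 late cytosolic and secreted genes limma also called 0, with 0 at an unadjusted p under 0.05. The chemokine gene Ccl6 had 125 to 479 FPKM among old libraries and 18.4 to 1307 among young ones, and Ifitm1 had 302 to 854 and 22.0 to 451 FPKM. For Fcgr3, Fcgr4 and Ccl6 the young values lay on both sides of the old, and for Ifitm1 young mouse 1 was the lowest library.

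Of the 7 tested stefin and cystatin relatives, 1 rose and 0 fell. Cst7, which encodes cystatin F of granule-bearing leukocytes, rose by 4.62 ± 0.72 on the log2(FPKM + 1) scale (limma adjusted p = 0.0226, range 0.0216 to 0.126). It measured 144, 36.1 and 43.7 FPKM across old mice 1 to 3, against 0, 3.14 and 2.93 FPKM across young mice 1 to 3, the opposite order to the stefins. Its call ended without any 1 of the old mice. The 7 intact lymphocyte markers summed to 1445 to 3678 FPKM among old libraries and 13.7 to 387 among young ones. The part of other leukocytes in the Cst7 values was not tested. Of the 9 transcription factor genes of granulopoiesis, 1 rose and 0 fell. Klf5, which epithelium also expresses, rose by 2.30 ± 0.46 (limma adjusted p = 0.0412, range 0.0161 to 0.119), a call that ended without any 1 library except young mouse 2.

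By limma, 0 of 5 S100 relatives, 0 of 2 resistin relatives and 0 of 4 oxidase genes passed, with 2, 0 and 0 at an unadjusted p under 0.05. Of all 10010 tested genes, 2315 were under that bound. S100a11, an S100 gene of many cell types, had 2090 to 3151 FPKM among old libraries and 750.5 to 2895 among young ones, and S100a1 had 339 to 507 and 320 to 483 FPKM. The resistin gene Retn stayed at 0.212 to 7.47 FPKM and Retnla, near Retnlg on chromosome 16, at 0 to 6.68 FPKM over all 6 libraries. The oxidase subunit genes Ncf1 and Ncf4 were between 15.8 and 53.3 FPKM among old mice and between 0.847 and 118 FPKM among young. Young mouse 1 was the lowest library for Ncf1, Ncf4 and S100a11, as for 7 of the 9 members.

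Neutrophils are drawn into tissue by chemoattractants and slowed by capture molecules on endothelium. Of 10 chemoattractant and growth factor genes limma called 0, with 3 at an unadjusted p under 0.05, against 2315 of all 10010 tested genes. The macrophage chemokine genes Ccl4 and Ccl3 were the most abundant, at 847 to 2458 and 494 to 980 FPKM among old mice and 26.6 to 905 and 8.62 to 720 FPKM among young, with young mouse 1 lowest. Among 6 endothelial capture molecules, 0 rose, 3 fell and 3 did not pass. The selectin genes Sele and Selp, whose proteins slow passing leukocytes on the vessel wall, fell by 3.40 ± 0.55 and 3.21 ± 0.37 on the log2(FPKM + 1) scale (limma adjusted p = 0.0238, range 0.0193 to 0.0882, and 0.00901, range 0.00820 to 0.0529), and Pecam1 fell by 3.44 ± 0.43 (limma adjusted p = 0.0115, range 0.0110 to 0.0605). The call for Sele ended without any 1 of the old mice and without young mouse 3, and that for Selp without old mouse 3. The median over the 7 endothelial markers, of which Pecam1 is itself 1, was -3.33, and the part of endothelial RNA in these 3 calls was not tested.

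Selp measured 2.09, 2.57 and 1.62 FPKM across old mice 1 to 3, against 42.9, 16.1 and 29.6 FPKM across young mice 1 to 3. Selectin RNA was therefore highest in young mouse 1, the library with the least neutrophil RNA. Among the receptors of secreted members limma called 0 of 6, with 2 at an unadjusted p under 0.05, against 2315 of 10010 tested genes. The lipopolysaccharide co-receptor Cd14 had 169 to 416 FPKM among old libraries and 23.4 to 933 among young ones, and the fatty acid scavenger receptor Cd36, which binds fatty acids carried by calprotectin, had 17.9 to 125 and 97.8 to 906 FPKM.

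**Figure D5:**
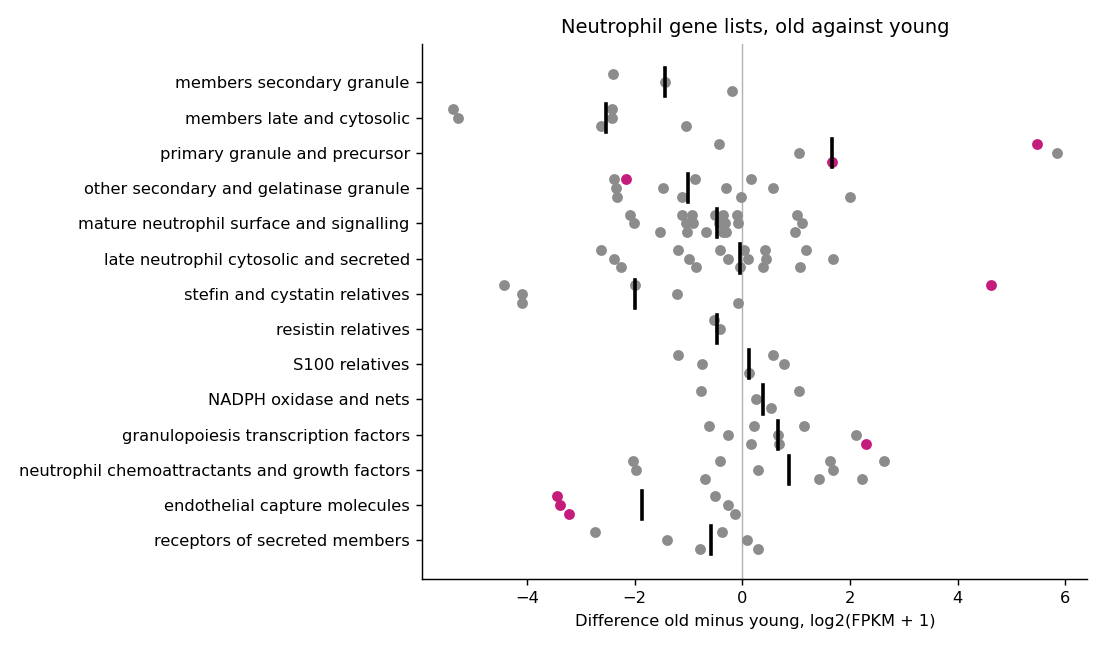
The log2(FPKM + 1) difference of each tested gene, old minus young, by list; black bars are list medians, pink points passed limma at an adjusted p under 0.05 and grey points did not, the members (no test given) among them. Of the 5 primary granule genes 4 lie right of 0, with Mpo at 5.47, and Stfa1 and Stfa2 lie furthest left, at -5.27 and -5.38.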

How the data were processed

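Per the labels, total RNA of 6 mice was made into libraries with an Illumina TruSeq kit. The authors deposited FPKM per gene and no counts, per the file headers. The submitters' processing notes name build mm8 and the tools Bowtie 0.12.2 and CASAVA 1.7 without a role; which counter and gene models they used is not stated here. The tables were damaged as received. Of 24720 rows, the first 2884 were intact, and 19037 rows had a known identifier, 6 readable values and passed a check that 1 gene length gives whole fragments in all libraries (tolerance 1e-06). Implied totals were not whole numbers, so a scaling factor may be inside them. Rows sharing a symbol were summed, leaving 19033 genes.

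Genes averaging 1 FPKM or more (10010) were tested on log2(FPKM + 1), which understates changes of low genes, with limma 3.58.1 in R 4.3.3 (trend, two-sided, Benjamini-Hochberg adjusted p under 0.05). The labels name separate mice. The method was tested on simulated data whose spread between mice was capped below that of the members, so that test does not cover them. Members, lists and tests were chosen with earlier results of these data known. The text names all members and up to 4 called genes per list, or else the 2 most abundant. It also names the 12 nearest profiles among genes without predicted or clone symbols. Elane, Stfa3, BC100530, Gm5483, Prg2, the single marker genes and those named for the fit without young mouse 1 were added after their values were seen. Sequences come from RefSeq on GRCm38.p6, gene positions and coding sequences from GENCODE M21, aligned with Biopython 1.88 (match 2, mismatch -1, gap -5 and -1), with identity over all aligned columns. Alternatives changed the pseudocount, filter, scaling, variance trend, fragment check, replicate block and libraries.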

Additional observations from a re-analysis of the deposited data

How the results depend on the processing

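The 498 calls over all genes became 323 with a pseudocount of 0.01, 223 without a filter, 292 with the filter raised to 5 FPKM and 84 to 395 with 1 library left out. The 8 companion calls became 4, 3, 8 and 1 to 18 under the same alternatives. With the mouse number as a replicate block they were 126 and 1, and the call for Pecam1 ended there only. The numbers name different mice and same-numbered libraries did not deviate together (correlation of deviations across genes -0.09, -0.0032 and 0.01), so the block has no basis in the design. The 2 scalings left the companion count at 8, and both kept the sign of every member. Leaving out 1 library moved the S100a9 difference between -5.34 and -0.94 and the Camp difference between -3.31 and -0.04, and turned the sign of Lcn2. With a pseudocount of 0.01, Stfa1 was at -11.42 and Stfa2 at -11.03. Over the 8 companion genes called with all libraries, 46 of 120 values under the alternatives lost the call and 74 kept it. The cause was not tested. Damaged rows and 3 mice a group limit every result.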
